A study of Mus musculus with 15 samples.

Results

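Mouse heart allografts on post-operative day 5 (POD5) were compared with heart controls, with 3 arrays in each group and 6 of the 15 arrays of the series in all. They were chosen by their sample titles alone, and no expression value was used. The allografts were hearts of B10 donors (C57BL/10, H-2b) placed with their vessels into the abdomen of sex-matched CBA recipients (H-2k), all male mice, and left there until day 5 while the heartbeat was felt by palpation. The controls were hearts labelled as normal, whose strain the labels do not give. The study elsewhere speaks of isografts as controls, and which of the descriptions holds for these arrays is not settled here, so surgery, ischaemia, strain and the immune response cannot be told apart. Surgery was done under isoflurane, and no immunosuppressive drug is named for either group. Expression was measured on 1-colour Agilent arrays of whole tissue, and a gene is described by its brightest probe that was well above background on all 3 arrays of a group. Of 32187 genes with a value on every array, 20686 passed this filter and are described here.

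Rejection of a heart across a full mismatch of the major histocompatibility complex (MHC) is driven by recipient T cells that enter the graft, recognise foreign MHC molecules and release interferon gamma (IFN-γ) and cytotoxic granules. IFN-γ acts through transcription factors such as IRF1, which raise antigen presentation, the chemokines that attract further T cells, and families of defence GTPases in both the graft and the infiltrating cells. The heart brings cardiomyocytes, which beat on fuel drawn largely from fatty acids, together with capillary endothelium, pericytes, fibroblasts, resident macrophages and an epicardial cover of mesothelium.

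The arrays carried the identity of heart tissue in both groups. The cardiac natriuretic peptide gene Nppa had log2 signals of 18.09, 18.09 and 18.09 in the allografts and 18.16, 17.96 and 17.96 in the controls, and cardiac troponin T (Tnnt2) had log2 signals of 17.51, 17.07 and 17.42 in the allografts and 17.41, 17.36 and 17.33 in the controls. Neither gene separated the groups, and none of the spots was saturated. Nppa lay near the top of the range, where quantile normalization gives each array nearly the same values, so little difference could show. Under scaling to the 75th percentile its log2 difference was 0.50 (limma adjusted P = 0.179), against 0.06 with quantile normalization. All log2 signals given here are normalized over the 6 arrays and listed in the order of replicates 1, 2 and 3, and none is compared between probes. Correlations of the arrays were 0.961 to 0.992 within the allografts, 0.987 to 0.993 within the controls and 0.899 to 0.935 between the groups. Allograft 2 stood apart from the other allografts. Its raw signal was the lowest, with a 75th percentile of 394.1 against 705.5 and 710.5 in allografts 1 and 3 and 1021 to 1247 in the controls. On that array 841 probes lay over 4-fold below the other members of its group, against 6 to 106 on the other 5 arrays. Of the 841, 79.8% had no RefSeq symbol, against 23.5% of all probes well above background. All allografts were on one slide and scan and all controls on another, so slide and group cannot be told apart.

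The controls also differed in the tissue they held. Sarcolipin (Sln), which marks the atrium, had log2 signals of 12.84, 13.99 and 13.81 in the allografts and 16.52, 4.03 and 16.53 in the controls. The atrial myosin light chain Myl7 had values of 13.13, 14.01 and 13.97 in the allografts and 16.48, 6.32 and 16.34 in the controls. Control 2 was therefore the lowest array for both atrial genes by a wide margin, and the allografts lay between it and the other controls. Adiponectin (Adipoq), made by adipocytes, was likewise lowest in control 2, with 10.46, 9.85 and 9.87 in the allografts and 12.27, 3.00 and 8.38 in the controls. The pancreatic amylase gene Amy2a5 was high in control 3 alone, at 4.72, 2.83 and 4.57 in the allografts and 6.04, 7.09 and 12.21 in the controls. Pancreatic lipase (Pnlip) had the same order, with 2.90, 3.89 and 9.52 in the controls and 2.61, 1.66 and 1.63 in the allografts. None of these 5 genes passed the test between groups. Without control 2, the log2 differences of Sln and Myl7 turned from 1.19 and 0.66 to -2.97 and -2.70 (adjusted P = 0.0162 and 0.0135), and the median over the 8 adipocyte genes turned from 0.89 to -0.35. Fat and atrial genes are therefore not described as changed. Some of the counts that depend on single arrays, control 2 and allograft 2 among them, are given beside the results below.

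**Figure D1:**
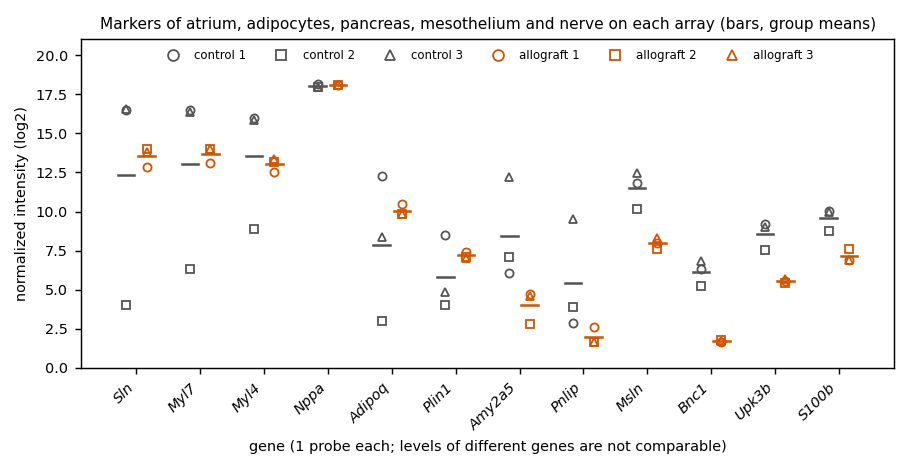
Log2 normalized signal (vertical axis) of 12 genes that mark atrium, adipocytes, pancreas, mesothelium or nerve in the 6 heart arrays. Grey symbols are controls, orange symbols allografts, the circle, square and triangle are replicates 1, 2 and 3, and bars are group means. Control 2 lies far below all other arrays for Sln and Myl7, control 3 has the highest Amy2a5 and Pnlip signal by far, and the allografts lie below every control for Msln, Bnc1, Upk3b and S100b.

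Allografts and controls differed in a large part of the genes measured. Genes were called when limma gave an adjusted P under 0.05 and the difference was at least 2-fold. Of the 20686 genes, 2616 (12.6%) were higher and 2799 (13.5%) were lower in the allografts, which is 26.2% in all. Every list count below is to be read against these shares of 12.6% and 13.5%. An adjusted P under 0.05 alone, with no minimum fold, was met by 42.1% of the genes. The gains reached further than the losses, with 117 genes at least 16-fold higher and 56 at least 16-fold lower. Of the genes called lower, 524 were well above background on no allograft array, and 32 of those called higher were so on no control array. These counts are not alike in their basis, because fewer probes were well above background on the allografts. The shares were 67.0%, 56.2% and 61.3% on the allografts and 70.1%, 68.8% and 70.5% on the controls. Among genes well above background on all 6 arrays, 2457 were higher and 1844 lower. All 3 allografts lay above all 3 controls for 28.9% of the genes and below them for 32.1%, so a lack of overlap was met in 60.9% of genes and singles none of them out. With 3 arrays per group, no exact permutation test of a single gene can give a two-sided P below 0.1. In whole tissue, fewer cells of a type and less RNA per cell cannot be told apart.

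**Figure D2:**
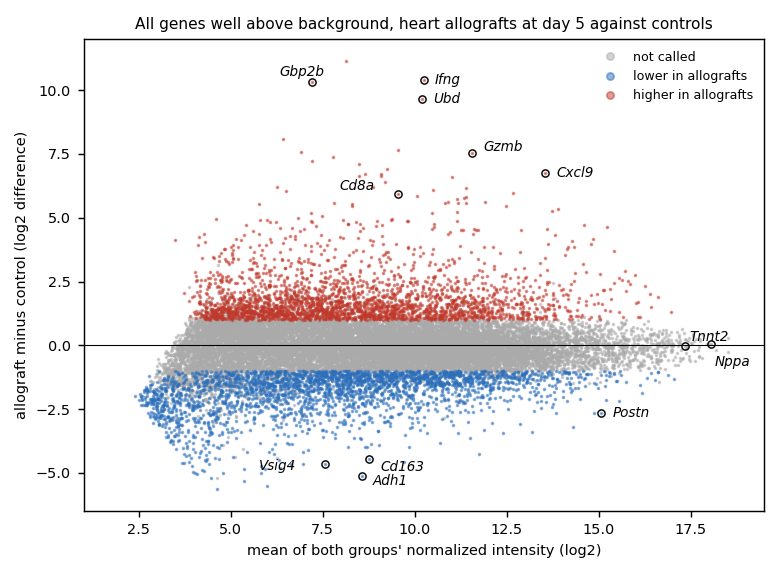
Log2 difference between the means of 3 allografts and 3 controls (vertical axis) against the mean log2 signal of the 6 arrays (horizontal axis) for the 20686 genes well above background. Coloured points are the 2616 genes called higher and the 2799 called lower, with 12 genes of the text labelled. Ifng, Gbp2b and Ubd lie above the other labelled genes, Vsig4, Cd163 and Adh1 lie at the lower end, and Tnnt2 and Nppa lie near 0 at the bright end.

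The groups of genes fell on both sides of the median of all genes, which was -0.06. The largest shift among the lists was that of the IFN-γ-induced GTPases, with a median log2 difference of 4.63. It was followed by T-cell genes at 3.96 and cytotoxic effectors at 3.05. On the other side lay mesothelial genes at -3.20, resident macrophage genes at -1.52, fibroblast and pericyte genes at -1.44 and endothelial genes at -1.20. Sarcomere genes had a median of -0.50, which was -0.24 without allograft 2 and -0.35 under 75th percentile scaling. A normexp background correction moved the medians of cytotoxic effectors and mesothelial genes to 1.99 and -2.07.

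**Figure D3:**
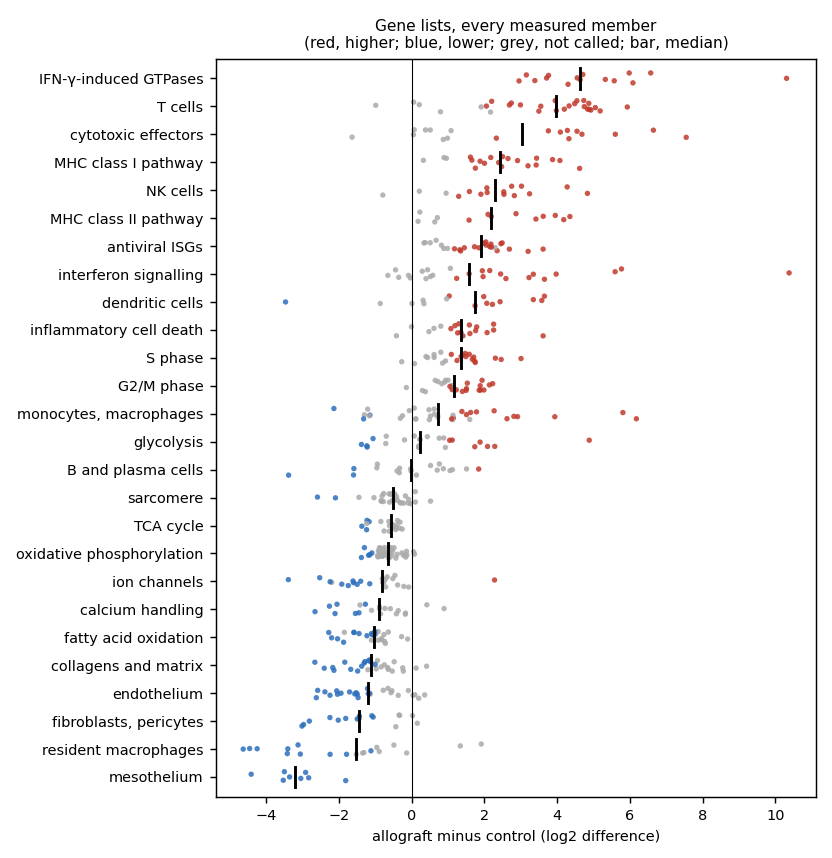
Log2 difference (allograft minus control, horizontal axis) of every measured member of 26 gene lists, 1 point per gene and 1 row per list, with a bar at each list's median. The medians run from 4.63 for the IFN-γ-induced GTPases and 3.96 for T cells to -1.52 for resident macrophages and -3.20 for mesothelium, and the heart lists lie between -1.04 and 0.23.

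IFN-γ itself showed the largest rise of the genes with a RefSeq symbol that were well above background on all 6 arrays. Ifng had log2 signals of 14.63, 15.98 and 15.71 in the allografts and 5.21, 4.84 and 5.13 in the controls. All allografts lay far above all controls, and the difference was 10.38 ± 0.38 (SE, n = 3 per group, adjusted P = 5.12e-04), a 1332-fold rise. The genes that carry its signal rose with it. Of 25 measured genes of interferon signalling, 14 were higher, against 12.6% of all genes, and none was lower, with a median of 1.58. The partner of IRF1 and target of IFN-γ, Batf2, rose by 5.77 ± 0.13 (adjusted P = 2.42e-04), and Socs1, the feedback inhibitor of the receptor kinases, by 5.60 ± 0.25 (adjusted P = 6.16e-04). Irf1 was 15.7-fold higher (adjusted P = 5.17e-04). The receptor genes were not among them. Ifngr1, which encodes the ligand-binding chain, had log2 signals of 14.40, 14.09 and 14.45 in the allografts and 14.67, 14.51 and 14.81 in the controls, a difference of -0.35 ± 0.14 (adjusted P = 0.123). The genes of the type I interferons Ifnb1 and Ifna4 were not well above background on any array.

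The GTPases induced by IFN-γ rose together. All 15 members with a probe were called higher, against 12.6% of all genes, and they spanned log2 differences from 2.95 for Gbp3 to 10.31 for Gbp2b. Gbp2b had values of 12.42, 12.08 and 12.62 in the allografts and 3.02, 1.67 and 1.5 in the controls. It was well above background on no control array, so it was at least 606-fold higher (adjusted P = 5.82e-04). Gbp4 rose 95.3-fold from a measured level in the controls (log2 difference 6.57 ± 0.20, adjusted P = 3.22e-04). The immunity-related GTPases Igtp and Irgm1, which act on the vacuoles of intracellular parasites, rose 24.8-fold and 19.7-fold. Probes of these near-identical paralogs may bind each other's transcripts, and the same holds for the Ifit, Klra and MHC class I genes, so single members are less certain than their families. Gbp10, Gbp11 and Tgtp2 had no probe.

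The upstream sequences of these genes are shown because the members moved together. RefSeq promoters (GRCm38.p6) were matched by symbol to 10 of the genes, with 11 promoters in all, and the 250 bases before each start were read on both strands for the interferon-stimulated response element (ISRE), searched as a GAAA followed after 2 bases by another GAAA. The following 60-base stretches are written 5′ to 3′ on the strand of the gene, with capitals for the ISRE or for overlapping copies of it.
Gbp2b, chr3:142594685-142594744, plus strand: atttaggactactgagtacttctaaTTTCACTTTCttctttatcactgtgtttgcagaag
Gbp2, chr3:142620579-142620638, plus strand: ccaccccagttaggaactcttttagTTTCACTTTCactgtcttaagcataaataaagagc
Gbp7, chr3:142530258-142530317, plus strand: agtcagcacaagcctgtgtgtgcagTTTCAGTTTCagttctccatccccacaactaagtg
Igtp, chr11:58199496-58199555, plus strand: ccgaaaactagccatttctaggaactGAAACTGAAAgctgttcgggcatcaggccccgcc
Irgm2, chr11:58214888-58214947, plus strand: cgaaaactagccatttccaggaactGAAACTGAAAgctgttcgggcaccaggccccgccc
Irgm1, chr11:48871421-48871480, minus strand: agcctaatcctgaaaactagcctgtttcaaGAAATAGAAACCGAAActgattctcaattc
Tgtp1, chr11:48992289-48992348, minus strand: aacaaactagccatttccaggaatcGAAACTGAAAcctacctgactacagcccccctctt
Gbp2b, Gbp2 and Gbp7 hold the element as TTTC copies, its reverse complement, while Igtp, Irgm2, Irgm1 and Tgtp1 hold it in the forward sense.
An ISRE was present in 10 of the 11 promoters (90.91%), against 2.69% of the 14581 promoters of all genes well above background. The 11 promoters belong to related genes and are not independent, and the stretches of Igtp and Irgm2 are nearly the same. Among all promoters the share was 5.34% for genes called higher, 2.33% for genes called lower and 2.33% for genes not called. Of the 24 promoters of antiviral genes, 8 held one. The IFN-γ-activated site (GAS, TTCNNNGAA) was found in 6 of the 11 GTPase promoters and in 6 of 23 promoters of interferon signalling genes, against 6.17% of all. It is shown for Irf1, the most induced IRF gene of the list, and for Irf8, which holds 2 copies.
Irf1, chr11:53769898-53769957, plus strand: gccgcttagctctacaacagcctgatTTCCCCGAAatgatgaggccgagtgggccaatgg
Irf8, chr8:120736179-120736238, plus strand: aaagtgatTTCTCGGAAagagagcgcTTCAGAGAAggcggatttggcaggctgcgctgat
These matches describe letters and not binding. Both elements occurred in 50 promoters and overlapped in 11.

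Genes better known from the response to viruses rose as well. Of 26 measured antiviral genes, 18 were higher and none was lower, with a median of 1.92. Zbp1, a sensor of left-handed nucleic acid that starts necroptosis, led the list with a rise of 3.62 ± 0.23 (adjusted P = 0.00106). Ifit2 rose 9.21-fold and Isg15, the ubiquitin-like modifier, 4.44-fold. Rsad2 and Ddx58, both classical targets of type I interferon, had differences of 0.51 ± 0.19 and 0.37 ± 0.28 and were not called (adjusted P = 0.0954 and 0.369).

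Antigen presentation rose in both classes. In class I, 17 of 20 measured genes were higher, against 12.6% of all genes, with a median of 2.43. Genes of the peptide supply were among them. The transporter subunit Tap1 had log2 signals of 12.86, 12.62 and 12.98 in the allografts and 8.51, 7.87 and 8.21 in the controls, with no overlap and a 24.6-fold rise (adjusted P = 5.82e-04). The immunoproteasome subunit Psmb9 rose 16.9-fold (adjusted P = 5.24e-04). The class I heavy chain H2-K1 rose by only 1.88 ± 0.21 (adjusted P = 0.00336), from 15.98, 15.27 and 15.78 in the controls to 17.54, 17.45 and 17.69 in the allografts, values near the top of the range. B2m, the light chain, was 1.94-fold higher, under the 2-fold minimum (adjusted P = 0.0118). Leaving out control 1 or control 3 brought it over that minimum. The non-classical class I gene H2-Q8 was among the 12 genes with the largest rises, at 6.63 ± 0.18 (adjusted P = 2.53e-04). Whether the probes match the H-2b and H-2k alleles of these polymorphic genes alike was not tested.

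Class II is carried by antigen-presenting cells and by IFN-γ-treated endothelium. In this class 9 of 13 measured genes were higher, against 12.6% of all genes, with a median of 2.19. The beta chain H2-Ab1 had log2 signals of 17.00, 16.60 and 17.18 in the allografts and 12.92, 12.52 and 12.80 in the controls. All allografts were above all controls, an 18.2-fold rise (adjusted P = 6.76e-04). The alpha chain H2-Aa, by contrast, rose 4.57-fold (adjusted P = 0.00103). Ciita, the master activator of class II genes, rose 15.5-fold (adjusted P = 8.33e-04).

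The chemokines that draw T cells rose with their receptor. Cxcl9 had log2 signals of 16.74, 17.12 and 16.89 in the allografts and 10.72, 9.51 and 10.25 in the controls, a rise of 6.76 ± 0.33 or 108-fold (adjusted P = 6.83e-04). Cxcl10 was 23.3-fold higher and their shared receptor Cxcr3, found on activated T cells, 11.1-fold (adjusted P = 7.03e-04 and 0.00151). In all, 4 of 17 measured genes of the CXC family were higher and 1 was lower, the neutrophil receptor Cxcr2 at -1.08. The neutrophil attractants Cxcl1, Cxcl2 and Cxcl5 were not called, with differences of 0.81, -0.16 and -0.09. The call of Cxcr2 was lost without allograft 1, control 1 or control 3 (-1.02 to -0.92, adjusted P = 0.0344 to 0.0692). In the CC and related families, 13 of 29 measured genes were higher and 2 were lower. Xcl1, released by activated CD8 T cells and NK cells, rose 83.3-fold (adjusted P = 9.36e-04), and Ccl5 rose 38.4-fold (adjusted P = 3.95e-04). Ccl1 was well above background in the allografts alone and at least 40.5-fold higher (adjusted P = 0.00185). Lower were Ccl9 at -2.08 and the lymphatic chemokine Ccl21a at -1.33. Ccl9 lost its call without allograft 1, allograft 3, control 1 or control 3 (-1.97 to -1.83, adjusted P = 0.0568 to 0.0767), and Ccl21a when any 1 array other than allograft 2 was left out (-1.44 to -1.06, adjusted P = 0.106 to 0.139).

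Among 34 measured cytokine genes, 13 were higher, against 12.6% of all genes, and 1 was lower, against 13.5%. The higher count was 11 without allograft 3, 9 without control 1 and 10 without control 2 or control 3. Lymphotoxin (Lta) rose 36-fold and Tnf 22.1-fold (adjusted P = 0.00699 and 0.00194). The receptor chain Il12rb1, through which T cells receive the IL-12 signal for IFN-γ production, rose 74-fold (adjusted P = 4.69e-04). Other members known in rejection did not pass the test. Il2, the T-cell growth factor, had log2 signals of 4.14, 5.18 and 4.14 in the allografts and 4.38, 4.29 and 4.45 in the controls with overlap of the groups. Il6 had signals of 10.29, 10.99 and 10.77 in the allografts and 9.65, 10.59 and 10.57 in the controls, and its difference was 0.42 ± 0.33 (adjusted P = 0.394). Il17a, Il5, Il22 and Il23a were not well above background on all arrays of either group. Tgfb3 was the gene that fell, from 13.28, 12.86 and 13.08 to 11.18, 10.85 and 10.93 (log2 difference -2.09 ± 0.15, adjusted P = 0.00139).

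T-cell genes rose almost as a whole list. Of 28 measured genes, 22 were higher, against 12.6% of all genes, and none was lower. Their summed normalized signal ran from 47902 to 74880 in the allografts and from 10112 to 10691 in the controls. Cd8a, the co-receptor of cytotoxic T cells, had log2 signals of 12.73, 11.91 and 12.92 in the allografts and 6.4, 6.25 and 7.12 in the controls, with 61-fold more in the allografts (log2 difference 5.93 ± 0.36, adjusted P = 9.73e-04). Cd4, the co-receptor of helper and regulatory T cells, had signals of 5.55, 6.09 and 5.55 in the allografts and 4.74, 5.15 and 4.91 in the controls, all low and close to each other. It was 1.74-fold higher, under the 2-fold minimum (adjusted P = 0.0358). The CD3 chain Cd3d rose 23.4-fold and the IL-2 receptor chain Il2rb 36.4-fold (adjusted P = 8.92e-04 and 8.54e-04).

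Lineage factors of T cells differed in their values. Tbx21 (T-bet), the factor of Th1 and cytotoxic cells, rose 26.9-fold (adjusted P = 8.41e-04). Its relative Eomes was dim in all controls, with allograft values of 6.54, 6.30 and 6.44, at least 9.23-fold higher (adjusted P = 0.00106). Gata3, the Th2 factor, had signals of 7.97, 7.25 and 8.28 in the allografts and 6.80, 4.93 and 6.03 in the controls and missed the threshold (log2 difference 1.91 ± 0.55, adjusted P = 0.0501), though it passed without allograft 2 or control 1. Foxp3, the factor of regulatory T cells, had signals of 4.97, 5.25 and 5.13 in the allografts and 2.84, 2.95 and 3.05 in the controls. It was well above background on 2 allograft arrays and no control array, which kept it below the filter (log2 difference 2.17 ± 0.12, adjusted P = 7.90e-04). Without allograft 2 it passed the filter and was called higher.

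Genes of the killing machinery of lymphocytes rose. Granzyme B (Gzmb) had log2 signals of 15.06, 14.97 and 15.99 in the allografts and 8.08, 7.40 and 7.89 in the controls, a 187-fold rise (log2 difference 7.55 ± 0.34, adjusted P = 6.19e-04). Perforin (Prf1), which opens the target membrane to granzymes, had signals of 11.45, 11.48 and 12.48 in the allografts and 5.40, 5.01 and 5.06 in the controls, a 100-fold rise (adjusted P = 6.83e-04). Both genes were low in every control and high in every allograft. Of 18 measured effector genes, 10 were higher and none was lower. Gzma and Gzmk rose 13.6-fold and 20-fold, with Gzmk well above background on 1 control array and its call lost without allograft 3 or any control (4.04 to 4.68, adjusted P = 0.0581 to 0.083). Gzme, Gzmf and Gzmg were not well above background on all arrays of either group. Fas, the death receptor, had a difference of 0.05 ± 0.21 (adjusted P = 0.88), whereas its ligand Fasl rose 19.5-fold (adjusted P = 0.001).

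Natural killer genes followed, with 13 of 16 measured genes higher, against 12.6% of all genes, and none lower. The lectin receptor Klrc1 (NKG2A) rose from 3.37, 3.51 and 4.04 to 8.53, 8.0 and 8.89, a 28.5-fold difference (adjusted P = 9.73e-04). Ncr1 (NKp46), the most specific NK marker of the list, rose 7.09-fold (adjusted P = 0.00803). Many NK receptors are also carried by activated CD8 T cells. Inhibitory receptors and ligands rose at the same time, with 8 of 16 measured genes higher. The ligand Cd274 (PD-L1) rose 37.3-fold and its receptor Pdcd1 (PD-1) 29.7-fold (adjusted P = 7.49e-04 and 0.00134). Ctla4 rose by 4.14 ± 0.22 (adjusted P = 7.90e-04) and was well above background on 1 control array. Cd160 was well above background on no control array, and its bound of 11.8-fold was the measured fold itself. Havcr2 (TIM-3) was not called, at 0.74 ± 0.34 (adjusted P = 0.153), but was called without allograft 2.

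**Figure D4:**
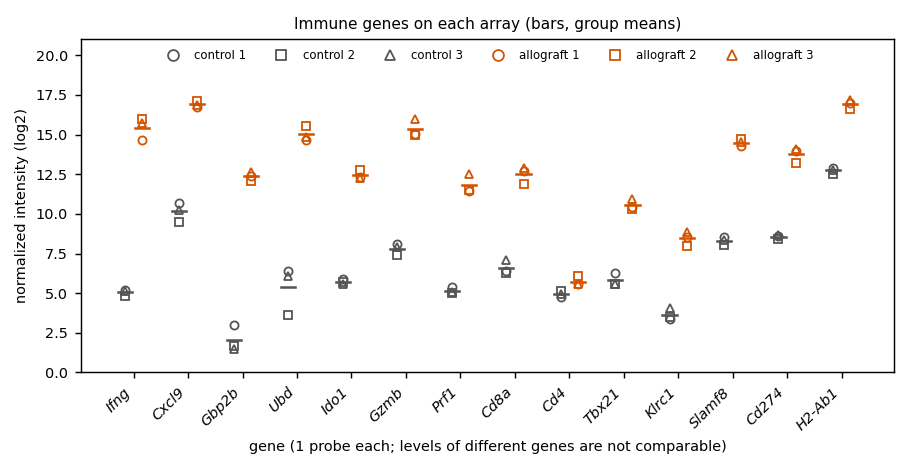
Log2 normalized signal (vertical axis) of 14 immune genes in the 6 arrays, with controls in grey, allografts in orange, the circle, square and triangle for replicates 1, 2 and 3, and bars for group means. The allografts lie above the controls for every gene shown. The gap is widest for Ifng and Gbp2b and narrowest for Cd4, whose values run from 4.74 to 6.09.

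Many monocyte and macrophage genes were higher. Of 35 measured genes, 13 were higher, against 12.6% of all genes, and 3 were lower, a smaller share than the 13.5% of all genes. Slamf8, a receptor of activated macrophages, rose 72.5-fold (adjusted P = 3.19e-04). Acod1, which makes itaconate in activated macrophages, rose 56.1-fold (adjusted P = 0.00324). Nos2, the inducible nitric oxide synthase, had signals of 5.87, 6.27 and 6.12 in the allografts and was dim in all controls, at least 7.75-fold higher (adjusted P = 6.55e-04). The general macrophage genes Csf1r and Adgre1 (F4/80) were not called, at 0.52 ± 0.24 and -0.31 ± 0.18. Spp1 (osteopontin) fell by 2.14 on the log2 scale (adjusted P = 0.00219), and Trem2 and Apoe were the other genes called lower, at -1.32 and -1.14. Trem2 lost its call without allograft 1, allograft 3, control 1 or control 3 (-1.25 to -1.15, adjusted P = 0.0588 to 0.0729), and without allograft 2 the number of lower genes was 5. Of 15 dendritic-cell genes, 9 were higher and 1 was lower. Xcr1, the receptor for XCL1 on cross-presenting dendritic cells, rose 4.67-fold (adjusted P = 0.00453), while Cd209a fell to background, at least 3.71-fold lower (adjusted P = 0.00501).

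Few neutrophil and B-cell genes were called. The alarmin gene S100a8, abundant in neutrophils, had log2 signals of 9.76, 12.39 and 10.29 in the allografts and 12.64, 12.64 and 13.26 in the controls. All allografts lay below the controls, allograft 2 by the least, and the difference of -2.03 ± 0.73 was not called (adjusted P = 0.0895). S100a9 was not called either, at -1.43 (adjusted P = 0.106). Csf3r had the opposite direction, at 0.73, under the 2-fold minimum (adjusted P = 0.0406). Of 19 neutrophil genes, 1 was higher (Fpr2), against 12.6% of all genes, and 2 were lower, against 13.5%. Both counts rested on single arrays. The lower count was 6 without allograft 2, 1 without allograft 3 or control 2, and 0 without allograft 1, control 1 or control 3, and Fpr2 was not called without allograft 3, control 1 or control 2 (1.96 to 2.36, adjusted P = 0.0675 to 0.0791). Of 19 B-cell and plasma-cell genes, 1 was higher (5.3%) and 3 were lower (15.8%, close to the 13.5% of all genes). Under 75th percentile scaling 3 were higher. Ms4a1 (CD20) and Cd79a had differences of -0.96 ± 0.59 and 0.71 ± 0.42 and overlapped between groups. The plasma-cell receptor Tnfrsf17 fell to background, at least 3.18-fold lower (adjusted P = 0.00263).

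Genes of the macrophages that reside in the normal heart fell. Of 19 measured genes, 10 were lower and none was higher, against 13.5% of all genes called lower. The lower count was 12 without allograft 2, 8 without allograft 1 and 7 without control 1. Cd163, the haemoglobin scavenger receptor, had log2 signals of 6.51, 6.63 and 6.46 in the allografts and 10.91, 10.93 and 11.12 in the controls. Replicates hardly differed and the groups were far apart, a 21.9-fold fall (log2 difference -4.45 ± 0.11, adjusted P = 2.42e-04). Vsig4, a complement receptor of tissue macrophages, had signals of 4.53, 6.15 and 5.09 in the allografts and 10.66, 9.10 and 9.91 in the controls, a 24.8-fold fall (adjusted P = 0.00458). Cbr2 was 19-fold lower, F13a1 10.7-fold, Mrc1 (CD206) 8.71-fold and Lyve1 8.34-fold (adjusted P = 0.00168, 5.71e-04, 4.25e-04 and 0.00314). Fcrls and Cd5l, a pair of macrophage genes outside the list but among the 12 largest falls, were 23.9-fold and 15.9-fold lower (adjusted P = 0.00103 and 0.0153). The call of Cd5l was lost without allograft 1, control 1 or control 3 (-3.88 to -3.64, adjusted P = 0.0502 to 0.0583). Timd4, another marker of resident macrophages, had the opposite order, with 7.68, 9.75 and 8.36 in the allografts and 6.64, 6.10 and 7.31 in the controls. Its difference of 1.92 ± 0.62 was not called (adjusted P = 0.0695), but under 75th percentile scaling it was called higher (2.06, adjusted P = 0.0205), the 1 gene of the list in that direction.

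Proliferation genes rose. Of 23 S-phase genes, 14 were higher, led by the cyclin Ccne1 at 8.05-fold, and of 24 G2/M genes, 14 were higher, led by Cdca8 at 4.69-fold (adjusted P = 0.00227 and 0.00598). None was lower. Mki67, the usual marker of cycling cells, had log2 signals of 12.44, 11.16 and 12.82 in the allografts and 11.98, 11.30 and 12 in the controls with overlap (log2 difference 0.38 ± 0.48, adjusted P = 0.591). The S-phase count was 8 without control 1 and 9 without control 2, and the G2/M count was 8, 7 and 9 without allograft 3, control 1 and control 2.

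Genes of inflammatory cell death rose in 14 of 19 cases, and none fell. Gsdmd, which forms the pores of pyroptosis, and Mlkl, the executioner of necroptosis, rose 4.78-fold and 4.77-fold (adjusted P = 0.00103 and 0.00131). Of 15 genes of tryptophan and arginine use, 7 were higher. Ido1, which breaks down tryptophan and restrains T cells, had log2 signals of 12.31, 12.75 and 12.25 in the allografts and 5.90, 5.70 and 5.59 in the controls, a 104-fold rise (adjusted P = 2.42e-04). Arg1 was not called, at 1.13 ± 0.50 (adjusted P = 0.148). Adhesion genes were higher in 10 of 19 cases, mainly those of leukocytes. Icam1, the ligand on endothelium for the leukocyte integrin, rose 5.7-fold (adjusted P = 0.00101). Vcam1 and Sele, both induced on activated endothelium, had differences of 0.88 ± 0.28 and -0.61 ± 0.38 and were not called (adjusted P = 0.0635 and 0.276). Vcam1 was called without allograft 2.

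Among the genes of the cardiomyocyte, few of the contractile apparatus were called. Of 28 sarcomere genes, 2 were lower and none was higher, against 13.5% of all genes called lower, and 4 were lower under scaling to the 75th percentile, a share close to that of all genes. Actc1, cardiac actin, had log2 signals of 17.64, 17.00 and 17.29 in the allografts and 17.52, 17.45 and 17.24 in the controls, and the difference was -0.09 ± 0.19 (adjusted P = 0.755). Actc1 and Tnnt2 lay near the top of the range, and under 75th percentile scaling their differences were 0.13 and 0.23, not called. Cardiac troponin I (Tnni3) was lower by 0.78 on the log2 scale, under the 2-fold minimum (limma adjusted P = 0.00907). Under 75th percentile scaling Tnni3 had -0.65 (adjusted P = 0.122). The alpha myosin heavy chain Myh6 had signals of 16.85, 14.31 and 16.54 in the allografts and 17.33, 17.54 and 17.18 in the controls. Allograft 2 lay far below the other allografts, which gave a difference of -1.45 ± 0.71 with a wide error (adjusted P = 0.178). Without allograft 2 the difference of Myh6 was -0.65 (adjusted P = 0.0378), under the 2-fold minimum, and under 75th percentile scaling it was called, at -1.38 (adjusted P = 0.0498). The genes called lower were Cmya5 (-2.09 ± 0.32, adjusted P = 0.00856) and Nebl (-2.59 ± 0.64, adjusted P = 0.0335), which encode proteins of the costamere and Z-disc. The count of 2 fell to 1 without allograft 3 or any control, where Nebl lost its call (-2.69 to -2.35, adjusted P = 0.0875 to 0.104), and the replicate block left 0.

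Of 20 calcium-handling genes, 7 were lower, none was higher and 13 were not called, against 13.5% of all genes called lower. Phospholamban (Pln), the brake on the calcium pump, had log2 signals of 13.74, 13.22 and 13.34 in the allografts and 15.26, 15.90 and 15.46 in the controls, a 4.3-fold fall (adjusted P = 0.00318). Hrc, a calcium-binding protein of the sarcoplasmic reticulum, had signals of 12.92, 11.94 and 12.65 in the allografts and 14.75, 15.83 and 14.90 in the controls, a 6.3-fold fall (adjusted P = 0.00763). The pump gene Atp2a2 had a difference of -1.10 ± 0.46 and was not called (adjusted P = 0.13). The release channel Ryr2 fell by 1.45 on the log2 scale (adjusted P = 0.0294), a call lost without allograft 3 or any control (-1.57 to -1.24, adjusted P = 0.0699 to 0.0877). The number of lower genes was 9 under 75th percentile scaling and 4 with the mean of each gene's probes. It was 5 without control 2, 4 without allograft 3 or control 1 and 3 without control 3, the last a share close to that of all genes.

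Of 23 ion channel genes, 10 were lower, against 13.5% of all genes, and 1 was higher, against 12.6%. The lower count was 12 without allograft 2, 7 without allograft 3 and 8 without control 2 or control 3. Kcnd2, which carries the transient outward potassium current, had signals of 8.58, 7.44 and 7.83 in the allografts and 10.38, 10.84 and 10.21 in the controls, a 5.76-fold fall (adjusted P = 0.00583). Kcna5 was 4.72-fold lower (adjusted P = 0.00808). The opposite was seen in Hcn4, the pacemaker channel, with 8.43, 9.06 and 8.53 in the allografts and 6.46, 6.42 and 6.31 in the controls. All allografts were above all controls, a 4.86-fold rise (adjusted P = 0.00177). The calls of the channel genes Kcnip2 (-2.09 to -1.54, adjusted P = 0.056 to 0.0781) and Cacna1g (-2.41 to -2.2, adjusted P = 0.0696 to 0.0966) were each lost without 4 of the 6 arrays, when these were left out singly.

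Among 16 receptor genes, 5 were lower, against 13.5% of all genes. They included the natriuretic peptide receptors Npr3 (-3.25 ± 0.70, adjusted P = 0.0219) and Npr1 (-2.31 ± 0.51, adjusted P = 0.0243). The beta receptor Adrb1 had a difference of -0.14 ± 0.12 (adjusted P = 0.451), while Adcy5, the adenylyl cyclase that carries its signal, fell 3.74-fold (adjusted P = 0.00233). The receptor count was 3 without allograft 3, control 1 or control 3. Npr3 lost its call without these same arrays (-3.25 to -2.75, adjusted P = 0.0617 to 0.0797), and Npr1 without allograft 3 or any control (-2.54 to -2.18, adjusted P = 0.0617 to 0.0745).

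Of 20 cardiac transcription factors, 3 were lower, namely Esrrg, Ppara and Prox1, a share of 15% close to the 13.5% of all genes. The call of Prox1 was lost without allograft 2, allograft 3, control 2 or control 3 (-1.22 to -0.92, adjusted P = 0.0232 to 0.0838). Gata4 had a difference of 0.32 ± 0.24 (adjusted P = 0.353). The count of lower factors was 7 under 75th percentile scaling, 5 under normexp, 7 without allograft 1, 1 without control 2 and 0 without allograft 3 or control 3. Esrrg, a driver of mitochondrial genes, fell by 1.94 on its brightest probe (adjusted P = 0.0434), but the mean of its probes gave 0.36, so its direction is not settled. The call of Ppara (-1.22 ± 0.32, adjusted P = 0.0394) was lost when any 1 array other than allograft 1 was left out (-1.35 to -0.96, adjusted P = 0.0568 to 0.115). Of 19 stress and fetal genes, 1 was higher and 2 were lower, with a median of -0.01, and the lower count was 4 without control 2 and 1 without control 3. Nppb, the other natriuretic peptide, had signals of 16.53, 16.34 and 16.21 in the allografts and 15.97, 16.49 and 15.99 in the controls with overlap. Gdf15, a stress-induced cytokine, rose 3.67-fold (adjusted P = 0.0163), a call lost without allograft 3, control 2 or control 3 (1.73 to 1.94, adjusted P = 0.0511 to 0.0625).

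**Figure D5:**
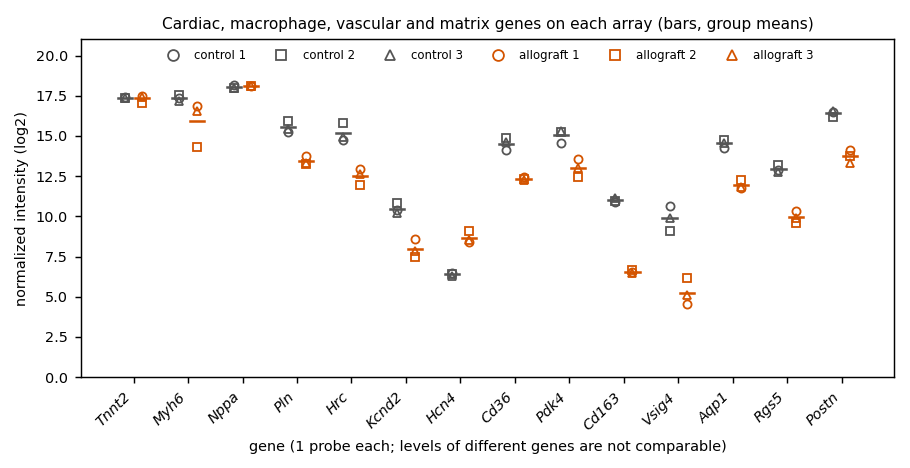
Log2 normalized signal (vertical axis) of 14 genes of cardiomyocytes, resident macrophages, vessels and fibroblasts in the 6 arrays, with controls in grey, allografts in orange, the circle, square and triangle for replicates 1, 2 and 3, and bars for group means. Tnnt2 and Nppa overlap between the groups, Hcn4 is higher in the allografts, and Pln, Hrc, Kcnd2, Cd36, Pdk4, Cd163, Vsig4, Aqp1, Rgs5 and Postn are lower in every allograft than in any control.

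Genes of fatty acid use, the main fuel of the heart, fell. Of 26 genes of uptake and oxidation, 13 were lower and none was higher, with a median of -1.04. The fatty acid transporter Cd36 had log2 signals of 12.43, 12.31 and 12.24 in the allografts and 14.13, 14.86 and 14.60 in the controls, a 4.59-fold fall (adjusted P = 0.00223). Decr1, needed for unsaturated fatty acids, fell 4.85-fold, and Hadha, the long-chain trifunctional enzyme, 3-fold (adjusted P = 0.00615 and 0.0103). Pdk4, which keeps pyruvate out of the mitochondrion, had signals of 13.57, 12.44 and 12.99 in the allografts and 14.56, 15.23 and 15.31 in the controls, a 4.1-fold fall (adjusted P = 0.0123) that missed the threshold without control 3 (-1.90, adjusted P = 0.051). The fatty acid carrier Fabp3 had signals of 17.32, 17.59 and 17.15 in the allografts and 17.44, 17.47 and 17.47 in the controls and overlapped between groups. The count of 13 was 8 without allograft 2, 6 without allograft 3 or control 2, 5 without control 3 and 4 with the replicate block.

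Genes of the mitochondrial core were lower in the median, with few calls. The 44 genes of oxidative phosphorylation had a median of -0.65, 5 were lower (11.4%, against 13.5% of all genes) and none was higher. The count was 1 under 75th percentile scaling and 7 without allograft 2, and when any other array was left out it was 0 to 3, at 0 without allograft 3 or control 2. With an adjusted P under 0.05 alone and no minimum fold, 26 of the 44 were lower, against 4474 of all 20686 genes. Atp5b, a subunit of ATP synthase, had a difference of 0.08 ± 0.10 (adjusted P = 0.595). The 20 genes of the citrate cycle had 4 lower genes (20%, against 13.5% of all genes), among them Sdha at -1.37. The number was 2 without allograft 3, where Sdha just missed the threshold. Of 20 genes of ketone, branched-chain amino acid and creatine use, 6 were lower (30%) and 1 was higher (5%). Gatm, the first enzyme of creatine synthesis, rose 3.1-fold (adjusted P = 0.00191), whereas muscle creatine kinase Ckm fell 5.56-fold (adjusted P = 0.0374), a call lost when any 1 array other than allograft 2 was left out (-2.77 to -2.11, adjusted P = 0.0714 to 0.107). Without allograft 2, allograft 3, control 2 and control 3 the count of 6 was 3, 1, 2 and 1. The core motif of ESRRA-type nuclear receptors (AAGGTCA, both strands) was in 3 of 101 promoters of these metabolic genes, against 3.11% of all.

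Of 24 glycolytic genes, 7 were higher, against 12.6% of all genes, and 4 were lower, a share close to the 13.5% of all genes. Hk3, the hexokinase of myeloid cells, had log2 signals of 13.50, 13.45 and 13.83 in the allografts and 9.0, 8.16 and 8.97 in the controls, a 29.5-fold rise (adjusted P = 8.41e-04). The lactate exporter Slc16a3 rose 4.88-fold and the glucose transporter Slc2a1 3.33-fold (adjusted P = 0.00554 and 0.00154). The insulin-regulated transporter Slc2a4 was 2.33-fold and muscle enolase Eno3 2.6-fold lower (adjusted P = 0.0128 and 0.00447). Ldhb and Pfkm were the other lower genes. Ldhb lost its call without allograft 2, allograft 3 or control 2 (-0.99 to -0.92, adjusted P = 0.0218 to 0.0427), and Pfkm without allograft 3 or control 1 (-1.31 to -1.23, adjusted P = 0.0502 to 0.058). Without allograft 3 the lower count was therefore 2.

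Endothelial genes were lower in 15 of 26 cases, against 13.5% of all genes, and higher in none. The lower count stayed between 12 and 15 when single arrays were left out. Aqp1, the water channel of cardiac capillaries, had log2 signals of 11.77, 12.23 and 11.85 in the allografts and 14.28, 14.78 and 14.54 in the controls, a 5.99-fold fall (adjusted P = 0.00139). Ptprb, the endothelial phosphatase of the angiopoietin receptor, fell 6.15-fold and Sox17, a factor of arterial endothelium, 5.22-fold (adjusted P = 0.0121 and 0.00191). Cdh5 (VE-cadherin) fell 3.26-fold, and Pecam1 had a difference of -0.78 ± 0.15, under the 2-fold minimum (adjusted P = 0.0076 and 0.0158). Plvap, of fenestrated endothelium, had signals of 11.39, 11.54 and 11.65 in the allografts and 11.52, 10.78 and 11.21 in the controls and was not called (adjusted P = 0.257). Kdr, the main receptor of VEGF, was called lower (-1.52 ± 0.39, adjusted P = 0.036) but its call was lost when any 1 array other than allograft 2 was left out (-1.75 to -1.43, adjusted P = 0.0502 to 0.109).

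Fibroblasts, pericytes and their matrix followed the same direction. Of 16 fibroblast, pericyte and smooth muscle genes, 11 were lower, against 13.5% of all genes, and none was higher. Rgs5, the pericyte marker, had log2 signals of 10.34, 9.58 and 9.88 in the allografts and 12.91, 13.16 and 12.77 in the controls, an 8.08-fold fall (adjusted P = 0.00147). Fap, of activated fibroblasts, fell 7.83-fold and Pdgfra 2.72-fold (adjusted P = 0.00217 and 0.00523). Acta2, smooth muscle actin, had signals of 15.51, 14.94 and 15.26 in the allografts and 15.19, 15.17 and 14.87 in the controls with overlap (adjusted P = 0.56). Myh11, of smooth muscle, lost its call without allograft 1 or any control (-2.97 to -2.56, adjusted P = 0.0585 to 0.08). The count of 11 was 6 without control 1 or control 3.

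Of 27 matrix genes, 14 were lower, against 13.5% of all genes, and none was higher. Periostin (Postn), secreted by cardiac fibroblasts, had log2 signals of 14.11, 13.77 and 13.33 in the allografts and 16.47, 16.17 and 16.56 in the controls, a 6.32-fold fall (adjusted P = 0.00194). Lumican (Lum) fell 4.49-fold and elastin (Eln) 3.57-fold (adjusted P = 0.00204 and 0.00546). Col1a1 just missed the threshold (-1.20 ± 0.34, adjusted P = 0.0506) and passed it without allograft 1. Fn1 and Tnc, both of which mark fresh scar, had differences of -0.64 ± 0.34 and 0.12 ± 0.27 and were not called. The matrix count was 10 without allograft 2 or allograft 3, 8 without control 1 and 9 without control 3.

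Mesothelial genes had the lowest median of the 48 lists. Mesothelium covers the heart, and whether other tissue attached to the samples added to these values was not tested. All 8 were lower, and their summed normalized signal was 649 to 1179 in the allografts and 3032 to 12410 in the controls. Mesothelin (Msln) had log2 signals of 7.98, 7.60 and 8.30 in the allografts and 11.84, 10.16 and 12.47 in the controls. Control 2 was the lowest control and yet lay above every allograft, and the fall was 11.5-fold (adjusted P = 0.0128). Bnc1 was dim in all allografts, with 6.35, 5.24 and 6.82 in the controls, and at least 3.55-fold lower (adjusted P = 0.00227). Upk3b fell 8.26-fold and Lrrn4 11.3-fold (adjusted P = 0.00841 and 0.00811). The count of 8 was 6 without allograft 2 and 5 without allograft 1 or control 3. It was 4 without control 1, where Msln missed the threshold (-3.36, adjusted P = 0.0514). Krt19 lost its call when any 1 array other than control 2 was left out (-3.16 to -2.42, adjusted P = 0.0565 to 0.0947). Of 9 markers of nerve and glia, 2 were lower and 1 was higher, with a median of -0.42 that was 0.07 under 75th percentile scaling. The glial gene S100b fell 5.46-fold (adjusted P = 0.0104), Sox10 was not called (0.01 ± 0.11, adjusted P = 0.971), and Dbh, which makes noradrenaline, was the higher gene, at 1.23. The higher count was 0 under normexp and without any 1 array other than allograft 1. The part of mesothelial cells in the lower matrix and fibroblast values was not tested.

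Several of the largest changes lay outside the lists. Ubd (FAT10), a ubiquitin-like protein induced by IFN-γ and TNF, had log2 signals of 14.65, 15.54 and 14.86 in the allografts and 6.43, 3.63 and 6.06 in the controls, an 801-fold rise (adjusted P = 0.00177). The lipase-family gene Pnpla5 rose 106-fold (adjusted P = 2.42e-04). Gm12185 and Gpr33 were measured in the allografts alone and at least 161-fold and 13.4-fold higher, and Gm11992 at least 13.2-fold. On the other side, Adh1, an alcohol and retinol dehydrogenase, had signals of 5.27, 5.93 and 6.79 in the allografts and 11.40, 10.90 and 11.03 in the controls, the largest fall of the genes with a RefSeq symbol measured on all arrays, at 34.6-fold (adjusted P = 0.00164). Dio2, which activates thyroid hormone, was 15.6-fold lower and Rbp7, a retinol carrier of capillary endothelium, 14.3-fold (adjusted P = 7.69e-04 and 0.00712). Gpm6a, the small matrix proteoglycan gene Aspn and the ephrin gene Efnb3 fell 15.8-fold, 15.6-fold and 14.4-fold (adjusted P = 0.00355, 0.00609 and 0.00342). Cytl1 fell 14.9-fold, a call lost without allograft 1, allograft 3, control 1 or control 3 (-4.14 to -3.39, adjusted P = 0.0631 to 0.0839).

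Some genes measured in all controls were well above background in no allograft, and fewer probes passed that mark on the allograft arrays. Tgm5 had log2 signals of 7.73, 8.35 and 8.49 in the controls and was at least 14.4-fold lower (adjusted P = 0.00105). The same was seen for Ccdc85a at 11.1-fold, the orphan receptor gene Gpr22, known from heart and brain, 9.27-fold, Pramel39 8.69-fold and 9330159F19Rik 7.89-fold, each as a lower bound.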

How the data were processed

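RNA of 6 heart samples was measured on 1-colour Agilent arrays (labelled with Cy3, 43379 spots). The authors deposited the scanner output of each array, in which the processed signal is a background-corrected intensity on a linear scale, not yet normalized between arrays, and each spot carries a mark of whether it is well above background. Precision is limited by 3 arrays per group, and the labels do not say that replicates were separate animals, so P-values measure the spread between these arrays. Control spots and outlier spots were left out, spots of a probe were averaged, log2 was taken and values were quantile normalized over the 6 arrays. Symbols came from RefSeq by accession (26690 of 41174 probes, 64.8%), and the other probes kept their own identifier. Limma (lmFit and eBayes) tested 41025 probes, with Benjamini-Hochberg adjustment over all of them, and a gene was called at adjusted P under 0.05 and a 2-fold difference on its brightest probe well above background on all 3 arrays of a group. Errors of differences are standard errors. Where a group was dim on all its arrays, the fold is a lower bound, set against the lowest signal of any probe well above background on each array or the dim probe's own signal, whichever was higher. The procedure was first tested on simulated data.

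The members and gene lists were chosen with earlier results of these data known. The genes named are the 12 with the largest rise and the 12 with the largest fall among genes with a symbol measured on all arrays, the 6 largest bounds in each direction, and in each list the largest called changes and members that were not called. Others, such as Isg15, H2-K1, Cd3d, Tbx21, Ctla4, Icam1, Slc2a1, Cdh5 and Pdgfra, were chosen for their known roles after their values were seen. Of 5389 genes with several probes, 4076 had the same call on each and 29 had opposite calls. The probes of Npr3, Ryr2, Atp2a2, Ppargc1a, Cry1, Clock, B2m, Cdh5, Ptprb, Vcam1, Col1a1, Acta2, Pdgfra and Esrrg did not share a call. Some genes are not reported here. Alternatives were another scaling, background correction, filter and test, among them the standardized fold change (SFC) of the study, and leaving out each array. Analyses used R 4.3.3, limma 3.58.1, the package data.table (1.17.8), Python 3.11.15, pandas 2.3.3 and matplotlib 3.10.9.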

Additional observations from a re-analysis of the deposited data

How the results depend on the processing

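The counts of 2616 genes higher and 2799 lower stayed within 1.5 times under scaling to the 75th percentile (3474 and 2690, with the median of all genes at 0.03), under quantile normalization over all 15 arrays, under the other priors, probe rules and fits, and without any 1 array (2032 to 2926 higher, 1875 to 3126 lower). They moved further under a normexp background correction (1715 higher, 1697 lower, 3412 in all), where a signal well above background on all 6 arrays was required (1844 lower), with an adjusted P alone and no minimum fold (4239, 4474 and 8713), under limma's treat, which tests against 2-fold (664, 542 and 1206), under the SFC with Bonferroni adjustment (94, 14 and 108), and under the methods' t-test with Bonferroni adjustment (9, 5 and 14). With the replicate number as a block 2259 were higher and 2065 lower, but the numbers do not pair the arrays (correlations of same-numbered deviations 0.06, -0.12 and -0.11). Counting genes called under either setting, and medians on opposite sides of 0 by more than the spread between replicates, directions reversed in 4 cases, namely Esrrg with the mean of its probes (0.36), and, without control 2, Sln (-2.97), Myl7 (-2.70) and the median of the adipocyte genes (-0.35). Without any 1 array these 3 ranged from -2.97 to 3.25, -2.70 to 2.37 and -0.35 to 2.44. Values nearer 0, or not called, changed sign as well, among them Tnnt2 (0.23), Actc1 (0.13), Fabp3 (0.09), Cxcl2 (0.15) and the median of the nerve markers (0.07) under 75th percentile scaling, the medians of the atrial genes without control 1 (0.27) and the neutrophil genes without allograft 1 (0.03), and Adipoq without control 2 (-0.26). Of 184 called genes tested by name, 178 kept their call under 75th percentile scaling, 173 under normexp, 177 with the mean of each gene's probes, 153 where all 6 arrays had to be well above background, 156 under the block, 149 to 178 without 1 array, 103 under treat, 46 under the SFC and 3 under the t-test with Bonferroni adjustment. The 75th percentile scaling added calls for genes that were not called, among them lower for Myh6, Atp2a2, Ppargc1a and Col1a1 and higher for Timd4, Cd4, Gata3, Cd79a and B2m. The block also lowered the number of lower genes from 13 to 4 in fatty acid use, 4 to 1 in the citrate cycle, 6 to 3 in ketone, amino acid and creatine use and 4 to 1 in glycolysis. Depth of signal limits Foxp3, Il2, type I interferons and granzymes E to G, whose probes were near background.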

Other observations

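Genes of the circadian clock, which also runs in cardiomyocytes, were not described above. Of 17 measured genes, 1 was higher (5.9%, against 12.6% of all genes) and 4 were lower (23.5%, against 13.5%) in the allografts. Cry1, a repressor of the clock, had log2 signals of 6.5, 6.90 and 6.68 in the allografts and 4.53, 4.66 and 4.15 in the controls, a 4.74-fold rise (adjusted P = 0.00166). All allografts were above all controls, though the gene was no longer called with a normexp background correction, and its probes did not share a call. Hlf, a transcription factor driven by the clock, had signals of 6.69, 6.11 and 6.58 in the allografts and 8.82, 8.66 and 8.28 in the controls, a 4.36-fold fall (adjusted P = 0.00288), and Nr1d2, another repressor, fell 3.58-fold (adjusted P = 0.00678). Clock fell 2.97-fold (adjusted P = 0.0137), a call lost without control 1 or control 3 (-1.6 to -1.53, adjusted P = 0.0504 to 0.0561). The number of lower genes was 2 without control 1. Arntl was just under the 2-fold minimum (-1.0 ± 0.22, adjusted P = 0.0226) and was called without allograft 2. Per1 and Per2 were not called, at 0.15 ± 0.26 and -0.84 ± 0.24. The hour at which the hearts were taken is not given in the labels.

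Of 17 measured complement genes, 4 were higher, against 12.6% of all genes, and 3 were lower, a share close to the 13.5% of all genes. Factor B (Cfb), of the alternative pathway, had log2 signals of 15.74, 15.44 and 16.34 in the allografts and 12.70, 11.86 and 12.33 in the controls, an 11.6-fold rise (adjusted P = 0.00205), and C2 rose 4.65-fold (adjusted P = 0.00525). The membrane inhibitors Cd55 and Cd59a were among the lower genes, at -1.37 and -1.52, and Cd55 lost its call without allograft 1, allograft 3, control 1 or control 3 (-1.41 to -1.12, adjusted P = 0.0944 to 0.102). C3 was not called (0.56 ± 0.33, adjusted P = 0.258). Of 24 matrix protease genes and their inhibitors, 3 were higher (12.5%, against 12.6% of all genes) and 5 were lower (20.8%, against 13.5%). The inhibitor Timp4, abundant in the heart, had signals of 5.71, 6.70 and 5.73 in the allografts and 8.41, 10.18 and 9.74 in the controls, a log2 difference of -3.40 ± 0.55 (adjusted P = 0.0095), whereas the urokinase receptor Plaur rose 3.28-fold (adjusted P = 0.00706). Of 22 genes of oxidative stress, 5 were higher (22.7%, against 12.6% of all genes) and 2 were lower (9.1%, against 13.5%). Among them were the phagocyte oxidase subunits Ncf4 and Cyba at 4.18-fold and 3.07-fold higher (adjusted P = 0.00197 and 0.0139). Metallothionein 1 (Mt1) fell 3.23-fold (adjusted P = 0.0099), and haem oxygenase (Hmox1) was not called (-0.09 ± 0.21, adjusted P = 0.774). The count of higher genes fell to 3 without allograft 1, control 1 or control 2, 2 without allograft 3 and 1 without control 3, and that of lower genes to 1 without allograft 1, allograft 3, control 1 or control 3. Haemoglobin genes of red cells were not called, with Hba-a1 at -0.91 ± 0.28 (adjusted P = 0.0604).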
